A study of Mus musculus with 12 samples.

Results

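The 7 genes described here encode the Klotho co-receptors and the receptors for fibroblast growth factors (FGFs): Klotho (*Kl*) and beta-Klotho (*Klb*), the receptor tyrosine kinases *Fgfr1*, *Fgfr2*, *Fgfr3* and *Fgfr4*, and the receptor-like gene *Fgfrl1*. Membership was set by symbol, with no threshold on a measured value but with earlier results of these data known, and all 7 were found by NCBI Gene ID among the 27179 genes of the count table. Of the 7, 6 were among the 15502 genes with enough counts to be tested, and *Klb* was not. The mRNAs were measured by poly(A) RNA-seq in the tibialis anterior (TA) muscle, a fast muscle of the shin, to ask which transcripts change when *FRAIL1*, a human long noncoding RNA, is forced into mouse muscle. Wild-type male C57BL/6N mice, 6 to 8 weeks old when obtained, had 1 TA (the Control muscle) injected with 10 μg of empty pcDNA3 and the opposite TA (the *FRAIL1* muscle) with 10 μg of the plasmid carrying full-length *FRAIL1*. Both legs were injected with hyaluronidase and electroporated, and both TAs were taken after 7 days, so each group held 6 muscles from 6 mice, and the muscles of 1 number were taken as the legs of 1 mouse. The CMV promoter carried by pcDNA3 vectors is not restricted to muscle fibers, and *FRAIL1* itself, being human, is absent from the mouse gene list and was not measured here. RNA came from whole muscle, so for every gene below fewer cells of a type and less RNA per cell cannot be told apart.

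FGFs bind the outer part of FGFR1 to FGFR4 together with heparan sulfate chains of the cell surface, and the paired receptors phosphorylate adaptors that switch on the RAS-ERK cascade. The endocrine FGFs bind heparan sulfate weakly and depend on a Klotho protein instead: Klotho serves FGF23, which controls phosphate, and beta-Klotho serves FGF21 and FGF15, which act in metabolism. Klotho is made chiefly in the kidney, the parathyroid gland and the choroid plexus and is also shed into blood, whereas in muscle FGFR1 and FGFR4 are known from myogenic cells and regeneration. FGFRL1 has the outer part of an FGF receptor but no kinase domain.

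The 12 libraries held between 44848322 and 60527385 counts, and levels are given as CPM, the usual measure of a gene's counts relative to the library total, here after scaling with edgeR's TMM factors. Across all genes tested, 6.28% differed between *FRAIL1* and Control muscles at an adjusted p-value of less than 0.05 (edgeR's quasi-likelihood test, corrected by the method of Benjamini and Hochberg over all genes tested), 4.43% higher and 1.85% lower. This share was 14.1% both with the mouse as a block and with DESeq2, and 6.22% without *FRAIL1* muscle 5. A list of 9 muscle fiber markers summed to between 137457 and 162057 CPM in Control muscles and between 109106 and 146406 CPM in *FRAIL1* muscles, so fiber mRNA was abundant in every library. *FRAIL1* muscle 5 stood apart from the rest: it had the lowest sum of fiber markers and the highest sums of the satellite cell and fibro-adipogenic lists. It also had the highest sum of the skin epithelium list, most of it from *Trp63*. Of the 3 tested markers of that list 1 had a positive log2 fold change of *FRAIL1* over Control, and the median was -0.06. Several values that rest on this muscle are given with and without it.

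In the GRCm38 build, *Kl* (Gene ID 16591) lies on chromosome 5 from 150952607 to 150993817, plus strand, and the same chromosome carries *Klb* (Gene ID 83379, 65348411 to 65386957), *Fgfr3* (Gene ID 14184, 33721724 to 33737068) and *Fgfrl1* (Gene ID 116701, 108694229 to 108706950), all on the plus strand. *Fgfr1* (Gene ID 14182) lies on chromosome 8 from 25518759 to 25575718 and *Fgfr4* (Gene ID 14186) on chromosome 13 from 55152818 to 55168759, both on the plus strand, and *Fgfr2* (Gene ID 14183) lies on the minus strand of chromosome 7 from 130162451 to 130266808. Other genes overlap 13.9% of the exon bases of *Fgfr3* (*G630022F23Rik*, opposite strand), 3.04% of those of *Fgfr2* (*Ctbp2*, same strand) and 1.66% of those of *Fgfr1* (*Gm16159*, opposite strand), and reads there cannot be assigned with certainty, since the sources used here do not state whether counting used strand. Transcript sequence of *Kl* also matches other genes at 98% identity or more over at least 100 bases. Which of the 2 *Kl* transcript models holds the match was not recorded.

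The 250 bases upstream of the start site are shown for *Kl* and *Fgfr4*, the genes that passed the test, and for *Fgfrl1*, whose call changed when *FRAIL1* muscle 5 was left out. Capitals mark E-boxes (CANNTG, bound by MyoD and other basic helix-loop-helix factors) and GC boxes (GGGCGG, bound by SP factors) on either strand. The sequences are RefSeq's for GRCm38.p6, plus strand, at chr5:150952357-150952606, chr13:55152568-55152817 and chr5:108693979-108694228.
Kl: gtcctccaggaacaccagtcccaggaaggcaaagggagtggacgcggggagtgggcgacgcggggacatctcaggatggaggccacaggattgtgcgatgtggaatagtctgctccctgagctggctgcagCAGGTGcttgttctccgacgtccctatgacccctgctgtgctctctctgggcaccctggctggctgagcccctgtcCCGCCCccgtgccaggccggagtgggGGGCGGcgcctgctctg
Fgfr4: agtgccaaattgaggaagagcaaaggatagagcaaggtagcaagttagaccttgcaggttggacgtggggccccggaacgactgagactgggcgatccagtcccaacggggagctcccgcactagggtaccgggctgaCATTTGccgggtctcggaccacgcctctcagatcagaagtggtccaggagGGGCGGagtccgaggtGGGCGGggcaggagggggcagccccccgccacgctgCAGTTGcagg
Fgfrl1: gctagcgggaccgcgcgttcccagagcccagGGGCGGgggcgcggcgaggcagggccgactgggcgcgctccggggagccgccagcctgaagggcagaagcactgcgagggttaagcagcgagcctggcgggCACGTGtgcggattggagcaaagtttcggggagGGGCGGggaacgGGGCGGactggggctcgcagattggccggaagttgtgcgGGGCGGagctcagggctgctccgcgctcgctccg
The *Kl* window held 1 E-box (CAGGTG, 119 to 114 bases before the start) and 2 GC boxes, that of *Fgfr4* held 2 E-boxes (CATTTG and CAGTTG) and 2 GC boxes, and that of *Fgfrl1* held 1 E-box (CACGTG) and 4 GC boxes. None of the 3 held a TATA box (TATAAA) or an MCAT element (CATTCC, bound by TEAD factors). Among 32536 such windows of the mouse genome, 66.2% held an E-box, 33% a GC box, 12.6% an MCAT element and 12.3% a TATA box, so these motifs are common and a match is not a binding site. The windows were rich in CpG, with 13 CpG in *Kl*, 15 in *Fgfr4* and 30 in *Fgfrl1* against a median of 6 in all windows.

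The Control muscles set the baseline. Divided by exon length, the level was 8.25 ± 0.508 CPM per kb (SD, n = 6) for *Fgfrl1*, 5.66 ± 0.340 for *Fgfr1*, 1.53 ± 0.253 for *Fgfr4*, 0.430 ± 0.105 for *Fgfr3*, 0.127 ± 0.0442 for *Fgfr2*, 0.0593 ± 0.0173 for *Kl* and 0.00998 ± 0.0128 CPM per kb for *Klb*. The ranges of neighbours in this order did not overlap among the 6 Control muscles. The leading pair changed places when the longest transcript served as the length, at 11.1 ± 0.667 CPM per kb for *Fgfr1* and 9.85 ± 0.607 for *Fgfrl1*, so their order depends on the transcript assumed. Both co-receptors were below every receptor: *Kl* gave between 14 and 36 counts per Control muscle, against between 2365 and 3086 for *Fgfr1*.

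**Figure D1:**
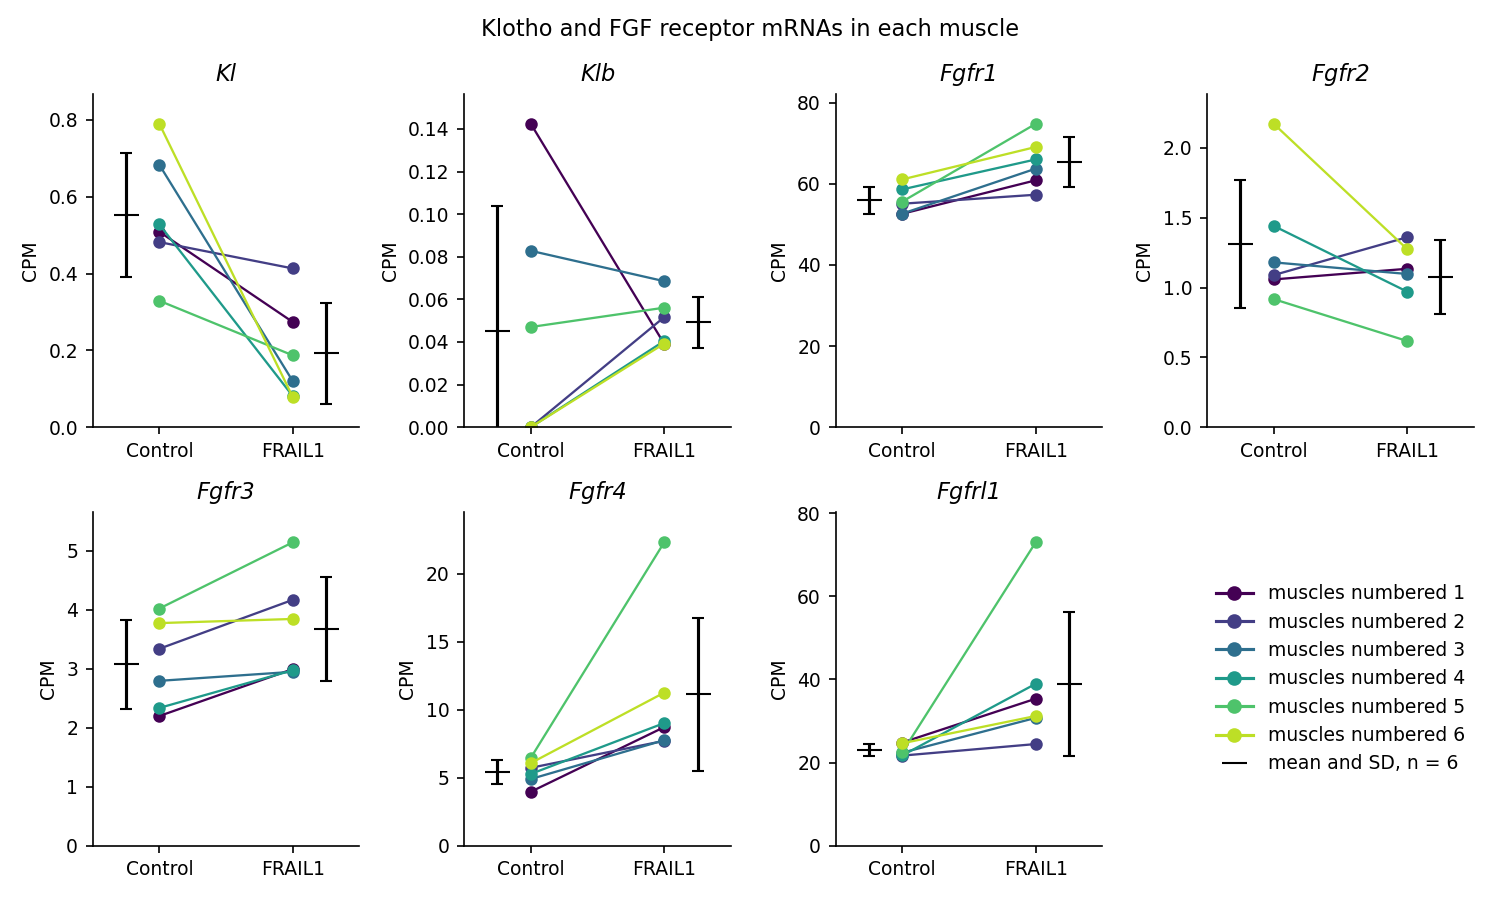
CPM of the 7 genes in each muscle (vertical axes from 0, each gene on its own scale), with lines joining the Control and *FRAIL1* muscles of 1 number and the mean and SD of 6 muscles beside each group. Lines fall in all 6 pairs for *Kl* and rise in all 6 for *Fgfr1*, *Fgfr3*, *Fgfr4* and *Fgfrl1*, with *FRAIL1* muscle 5 far above the rest for *Fgfr4* (22.3 CPM) and *Fgfrl1* (72.99 CPM).

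Between the groups, 2 of the 6 tested genes passed an adjusted p-value of 0.05 in edgeR's quasi-likelihood test, *Kl* in the lower and *Fgfr4* in the higher direction, against 6.28% of all genes tested. *Fgfr1* and *Fgfrl1* lay just above the threshold, and *Fgfr2* and *Fgfr3* did not pass it. The count moved when single muscles were left out: with 1 muscle omitted at a time it was 0 in 7 of 12 fits and reached 4 without *FRAIL1* muscle 2 or 3. Calls over all genes tested moved in the same fits, from 974 with all muscles to between 364 and 2110.

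Among the co-receptors, Klotho fell. *Kl* measured a lowest value of 0.329, a median of 0.518 and a highest value of 0.790 CPM in Control muscles, and 0.0784, 0.154 and 0.413 CPM in *FRAIL1* muscles. The *FRAIL1* muscle was lower in 6 of 6 mice, and only *FRAIL1* muscle 2, at 0.413 CPM, reached into the Control range. Means were 0.553 ± 0.162 CPM (SD, n = 6) and 0.192 ± 0.131 CPM (SD, n = 6), which gave a log2 fold change of -1.50 with a standard error of 0.387 and a 95% interval from -2.32 to -0.68, or 2.83-fold lower (edgeR quasi-likelihood adjusted p = 0.0355). The size of the difference varied widely between mice, from -0.20 in mouse 2 to -2.82 in mouse 6 on the log2 scale. That scale adds a prior of 2 counts, which shrinks differences between low counts. The *Kl* values rest on few reads, 161 counts over the 6 Control muscles and 63 over the 6 *FRAIL1* muscles. Leaving out Control muscle 1, 2, 3, 4 or 6 or *FRAIL1* muscle 1, 4 or 6 raised the adjusted p to between 0.0571 and 0.0760, while the log2 fold change stayed between -1.89 and -1.35 over all 12 such fits. Marker lists whose median log2 fold change was negative, like that of *Kl*, were those of adipocytes, Schwann cells, muscle fibers, endothelium, smooth muscle with pericytes and skin epithelium. All 6 tested adipocyte markers had a negative log2 fold change, and their sum lay between 55.8 and 116.7 CPM in *FRAIL1* and between 133.7 and 178.7 CPM in Control muscles, without overlap. Most of this sum came from *Plin4*, with a mean of 128.7 CPM in Control muscles against 9.81 CPM for *Cfd*, the next highest. *Plin4* fell (log2 fold change -0.55, edgeR quasi-likelihood adjusted p = 0.0496, or 0.0564 with the mouse as a block). The lack of overlap was thus that of *Plin4*, and which cells gave its mRNA was not tested. The other tested adipocyte markers overlapped between groups, and none of them was called. Their log2 fold changes lay between -1.23 and -0.58 with all muscles, and between -0.41 and -0.21 without both muscles numbered 5. The 7 endothelial markers were likewise negative, with a median of -0.18 and sums between 292.1 and 378.4 CPM in *FRAIL1* and between 372.5 and 431 CPM in Control muscles, and among them *Tek* fell (log2 fold change -0.41, edgeR quasi-likelihood adjusted p = 0.0186). The 7 Schwann cell markers were also all negative, with a median of -0.26 and sums between 73.9 and 115.3 CPM in *FRAIL1* and between 89.3 and 158.6 CPM in Control muscles, and *Prx* passed with the mouse as a block (adjusted p = 0.0313). Of the 9 fiber markers 7 were negative, with a median of -0.21. None of these lists had a marker at 0 in every muscle, and their part in the *Kl* result was not tested.

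*Klb* was barely detected. It gave 7, 0, 4, 0, 2 and 0 counts in Control muscles 1 to 6 and 2, 3, 4, 2, 3 and 2 counts in the *FRAIL1* muscles. Control muscles 2, 4 and 6 were at 0, where a count of 0 allows up to 3 counts, or between 0.0514 and 0.0705 CPM depending on the library, so these muscles are not distinguishable from the *FRAIL1* muscles. Over 13 and 16 counts the ratio of *FRAIL1* to Control was 1.11, with an exact 95% interval from 0.502 to 2.52 that covers counting error only. A difference in *Klb* was not detectable at this depth.

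Of the kinase receptors, FGFR1 carried most of the reads. *Fgfr1* ranged from 52.6 to 61.1 CPM (median 55.3) in Control muscles and from 57.3 to 74.8 CPM (median 64.85) in *FRAIL1* muscles. The groups overlapped, but the *FRAIL1* muscle was the higher one in 6 of 6 mice, by 0.06 to 0.43 on the log2 scale. Its means of 55.9 ± 3.36 and 65.3 ± 6.18 CPM (SD, n = 6 each) gave a log2 fold change of 0.22 with a standard error of 0.0668 and a 95% interval from 0.08 to 0.37. The adjusted p was 0.0572 in edgeR's quasi-likelihood test and 0.0276 with the mouse as a block. Without the block it was 0.0298 with DESeq2's Wald test and 0.0345 with limma's voom, so the call depended on the method. In edgeR without the block the adjusted p was also under 0.05 without *FRAIL1* muscle 2 (0.0291) or 3 (0.0477).

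FGFR4 alone of the 7 rose with no overlap between groups. *Fgfr4* ranged from 3.97 to 6.47 CPM (median 5.50) in Control muscles and from 7.71 to 22.3 CPM (median 8.87) in *FRAIL1* muscles. No *FRAIL1* muscle was as low as the highest Control muscle, which held for 3.12% of all genes tested, and muscle 5 was farthest out, with muscle 6 next at 11.3 CPM. The means of 5.40 ± 0.896 and 11.1 ± 5.63 CPM (SD, n = 6 each) gave a log2 fold change of 1.04 with a standard error of 0.253 and a 95% interval from 0.50 to 1.59, or 2.06-fold higher (edgeR quasi-likelihood adjusted p = 0.0336). Without *FRAIL1* muscle 5 the log2 fold change was 0.72 and its standard error 0.129, with an adjusted p of 0.00473, and the other 5 *FRAIL1* muscles averaged 8.895 ± 1.44 CPM. Leaving out any 1 Control muscle, or *FRAIL1* muscle 1 or 6, raised the adjusted p to between 0.0518 and 0.0748. Within mice the difference ran from 0.43 in mouse 2 to 1.78 in mouse 5 on the log2 scale.

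*Fgfr2* and *Fgfr3*, the kinase receptors with the lowest levels, did not pass the test. *Fgfr2* ranged from 0.917 to 2.17 CPM (median 1.13) in Control and from 0.617 to 1.36 CPM (median 1.12) in *FRAIL1* muscles. The *FRAIL1* muscle was lower in 4 of 6 mice, and Control muscle 6 was the highest and *FRAIL1* muscle 5 the lowest. The log2 fold change of -0.28 had a standard error of 0.238 and a 95% interval from -0.79 to 0.22 (edgeR quasi-likelihood adjusted p = 0.464), and it was -0.08 without Control muscle 6. *Fgfr3* ranged from 2.20 to 4.02 CPM (median 3.07) in Control and from 2.95 to 5.14 CPM (median 3.42) in *FRAIL1* muscles. The ranges largely overlapped although the *FRAIL1* muscle was higher in 6 of 6 mice, by 0.03 to 0.44 on the log2 scale. Its log2 fold change of 0.26 had a standard error of 0.184 and a 95% interval from -0.13 to 0.65 (edgeR quasi-likelihood adjusted p = 0.379, or 0.134 with the mouse as a block). For *Fgfr2* the interval still holds a fall or a small rise, and for *Fgfr3* a small fall or a rise.

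FGFRL1, the receptor without a kinase, was higher in every mouse. *Fgfrl1* ranged from 21.7 to 24.8 CPM (median 22.4) in Control muscles and from 24.5 to 72.99 CPM (median 33.3) in *FRAIL1* muscles. Of the *FRAIL1* muscles, number 2 lay within the Control range and the other 5 lay above it, with muscle 5 at 72.99 CPM and muscle 4 next at 38.95 CPM. The means of 22.95 ± 1.41 and 38.95 ± 17.4 CPM (SD, n = 6 each) gave a log2 fold change of 0.76 with a standard error of 0.219 and a 95% interval from 0.29 to 1.24, just short of the threshold (edgeR quasi-likelihood adjusted p = 0.0575). Without *FRAIL1* muscle 5 the log2 fold change was smaller, at 0.48, yet its standard error fell to 0.0930 and the adjusted p to 0.00758. The adjusted p was 0.0267 with *FRAIL1* muscle 2 left out, 0.0392 with *FRAIL1* muscle 3 left out and 0.00425 with DESeq2 on all muscles.

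**Figure D2:**
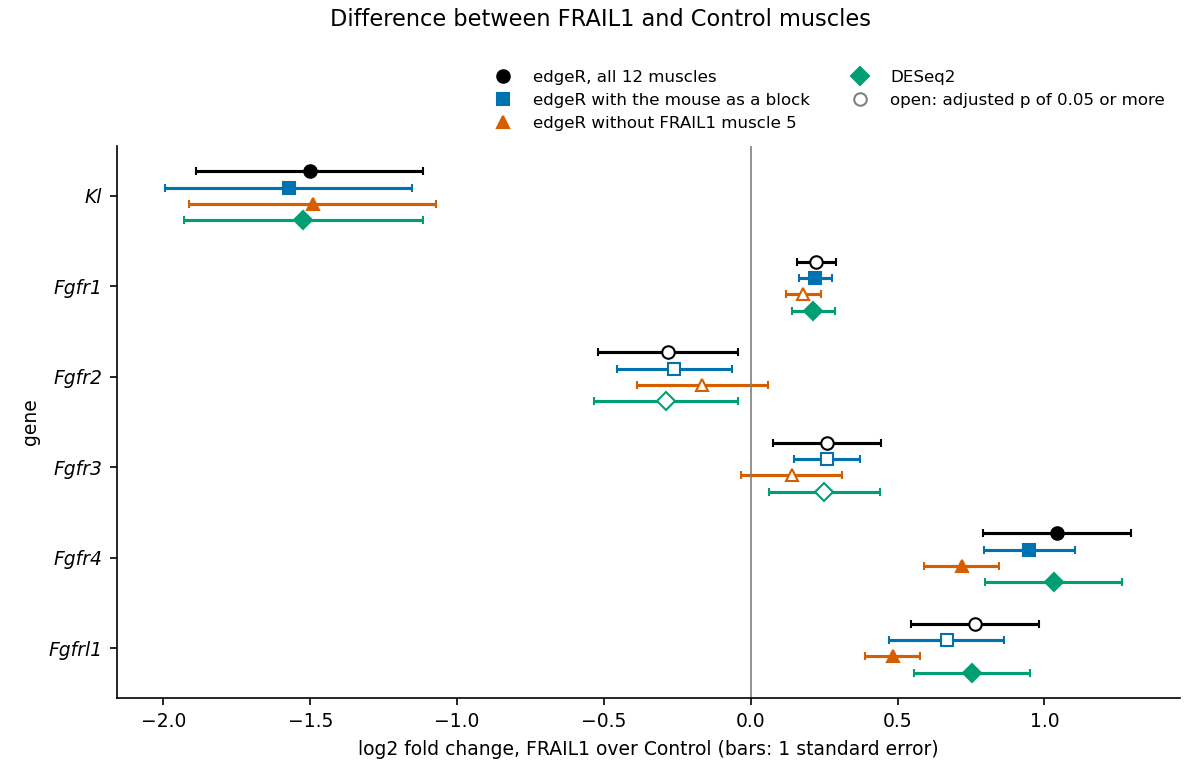
Log2 fold change of *FRAIL1* over Control muscles for the 6 tested genes (horizontal axis, bars of 1 standard error) in 4 fits, filled where the adjusted p was under 0.05. *Kl* and *Fgfr4* are filled in all 4 fits shown, *Fgfr1* with the block and DESeq2, *Fgfrl1* without *FRAIL1* muscle 5 and with DESeq2, and *Fgfr2* and *Fgfr3* in none of the 4.

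The make-up of the kinase receptors shifted from *Fgfr1* toward *Fgfr4*. Each receptor's CPM per kb of exon was taken as a share of the sum over *Fgfr1* to *Fgfr4* in the same muscle, which does not depend on library scaling. *Fgfr4* made up from 16.3 to 22.5% in Control and from 23.9 to 43.02% in *FRAIL1* muscles, with means of 19.6 ± 2.07% and 29.1 ± 7.08% (SD, n = 6 each). These ranges did not overlap, and the share was higher in 6 of 6 mice, by 9.46 points on average (adjusted p = 0.00866, exact two-sided permutation test over all arrangements of the 12 muscles, adjusted over the 4 receptors). The raw p of 0.00217 is the smallest this test can give. The share of *Fgfr1* fell from 73.3 ± 2.93% to 64.9 ± 6.76% (SD, n = 6 each), a change of -8.38 points that was downward in 6 of 6 mice (adjusted p = 0.00866, the same exact permutation test). The CPM of *Fgfr1* was itself higher in the *FRAIL1* muscle in 6 of 6 mice, so its share fell but its level did not. *Fgfr2* went from 1.62 ± 0.458% to 1.06 ± 0.368% (adjusted p = 0.0433, exact permutation test), and *Fgfr3* from 5.51 ± 1.06% to 4.98 ± 0.880% (adjusted p = 0.359, exact permutation test). Without *FRAIL1* muscle 5 the *Fgfr4* and *Fgfr1* shares still differed, by 6.67 and -5.73 points (adjusted p = 0.00866 and 0.0173, exact permutation tests), and that of *Fgfr2* did not pass (adjusted p = 0.0952). The share of *Fgfr2* also lost its call without each of Control muscles 1, 3, 4 and 6 and *FRAIL1* muscles 1, 3, 4 and 6 (adjusted p between 0.0577 and 0.0866, exact permutation tests). An exact sign-flip test within mice cannot go below 0.0313 with 6 mice and gave an adjusted p of 0.0625 for *Fgfr4* and for *Fgfr1*. The 4 shares sum to 100%, so they are not independent of each other. Their size depends on the length assumed. With the longest transcript as length, *Fgfr4* averaged 11.8% in Control and 18.5% in *FRAIL1* muscles (adjusted p = 0.00866, exact permutation test). *Fgfr1* then averaged 80.85% and 75.07% (adjusted p = 0.0217, exact permutation test).

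**Figure D3:**
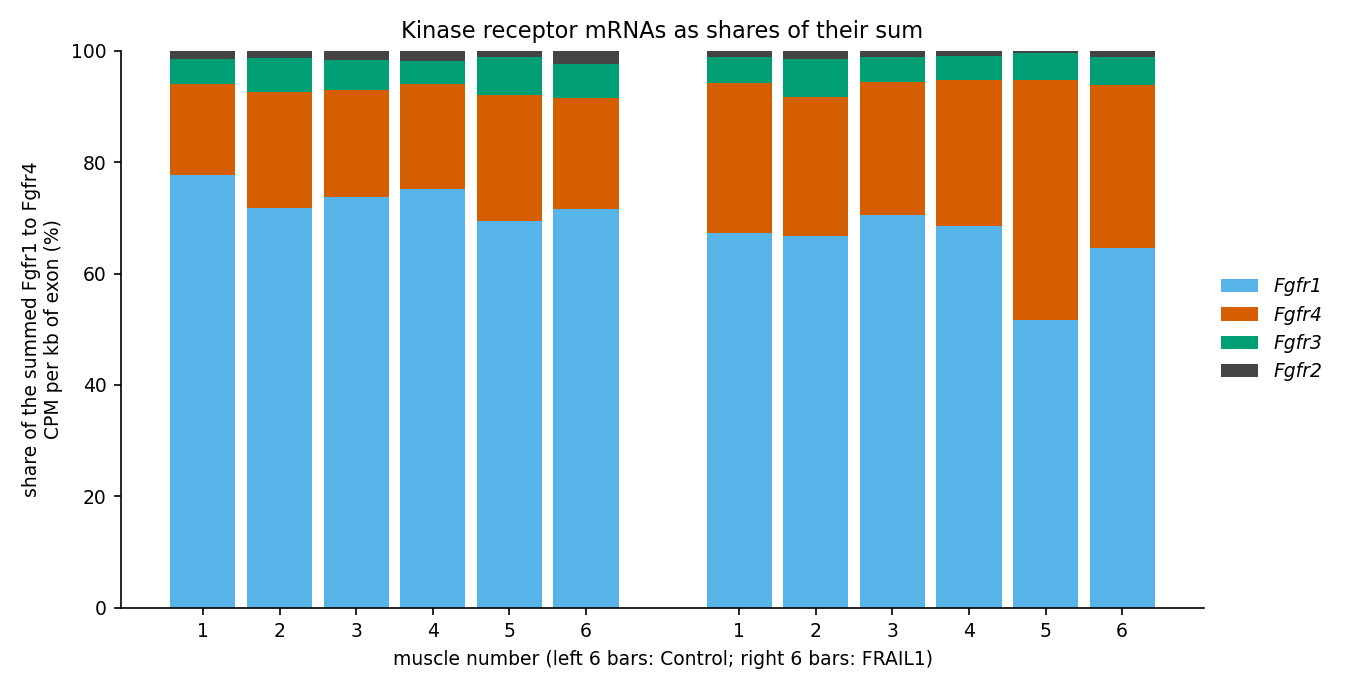
Shares of the summed CPM per kb of exon of *Fgfr1* to *Fgfr4* in each muscle (vertical axis in percent from 0 to 100, stacked bars, 6 Control muscles at left and 6 *FRAIL1* muscles at right). The *Fgfr4* segment takes 16.3 to 22.5% of a Control bar and 23.9 to 43.02% of a *FRAIL1* bar, where muscle 5 has the largest.

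Some of the 7 genes varied together within groups. Over the deviations of 12 muscles from their group means, Pearson's r was 0.80 between *Fgfr1* and *Fgfr4*, 0.80 between *Fgfr4* and *Fgfrl1* and 0.73 between *Fgfr3* and *Fgfr4*. These are descriptions over muscles that share depth, scaling and, by number, a mouse. They were 0.70, 0.32 and 0.66 without *FRAIL1* muscle 5, so the link of *Fgfr4* with *Fgfrl1* rested on that muscle. *Kl* followed none of the receptors closely, with r between -0.37 and 0.36, or between -0.52 and 0.50 without *FRAIL1* muscle 5.

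Among 13010 genes with a mean of at least 1 CPM, the 3 whose deviations were most like those of each gene were taken. For *Fgfr4* they were *Iqsec3* (r = 0.99), *Mrc2* (0.97), a collagen receptor of fibroblasts and macrophages, and *Chpf* (0.95), a chondroitin synthase subunit. For *Fgfrl1* they were *Grb10* (0.96), an adaptor of growth factor receptors, *Tceal8* (0.95) and *Myl6b* (0.95), a myosin light chain of slow muscle. *Fgfr1* was nearest to *Mgp* (0.93), the matrix Gla protein, *Selenom* (0.93) and *Mrpl41* (0.92), and *Fgfr3* to *App* (0.93), the amyloid precursor protein, *Slc2a13* (0.92) and *Trim2* (0.91). *Fgfr2* was nearest to *Atg14* (0.91), an autophagy factor, *Kctd20* (0.87) and *Ciart* (0.87), a circadian repressor, and *Kl* to *Rrnad1* (0.86), *Derl1* (0.81) and *Ptpdc1* (0.80). These coefficients lay between 0.80 and 0.97 without *FRAIL1* muscle 5.

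The pathway around the receptors was read from 10 lists of 117 genes, of which 106 were tested. Of these, 9 rose and 1 fell, or 9.43% against the 6.28% of all genes tested, and with the mouse as a block 13 rose and 9 fell, where 7.48% of all genes tested rose and 6.62% fell. Their median log2 fold change was 0.06, against 0.01 over all genes tested.

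Among the ligands, *Fgf21* rose and *Fgf2* fell, both from low levels. *Fgf21*, a stress-induced endocrine FGF that signals through beta-Klotho, went from 0.252 ± 0.157 to 1.16 ± 0.664 CPM (SD, n = 6 each), which gave a log2 fold change of 2.18 with a standard error of 0.493 and higher in 6 of 6 mice (edgeR quasi-likelihood adjusted p = 0.0229). The other endocrine ligands were not tested, since *Fgf15* was at 0 in every muscle and *Fgf23*, the Klotho-dependent hormone, averaged 0.0728 CPM in Control and 0.0554 CPM in *FRAIL1* muscles. *Fgf2*, a basic FGF stored in the matrix of muscle, went from 0.300 ± 0.0833 to 0.0966 ± 0.0660 CPM (SD, n = 6 each), which gave a log2 fold change of -1.58 with a standard error of 0.413 and lower in 6 of 6 mice (edgeR quasi-likelihood adjusted p = 0.0376). Other genes overlap 13.2% of its exon bases, among them *Nudt6* on the opposite strand. It gave 87 counts over the 6 Control muscles and 32 over the 6 *FRAIL1* muscles. Its edgeR quasi-likelihood adjusted p was 0.0498 without *FRAIL1* muscle 5 and 0.0843 without both muscles numbered 5. Of the 15 paracrine ligands 8 were tested, and *Fgf2* was the 1 called, with a list median of -0.18. The 3 paracrine ligands with the highest CPM were *Fgf1* (log2 fold change -0.34), *Fgf6* (-0.57), which is largely restricted to muscle, and *Fgf7* (0.02), of which *Fgf6* passed when the mouse was a block (adjusted p = 0.0259). Of the 4 FGF homologous factors, which stay inside the cell and bind sodium channels, *Fgf11* rose from 4.04 ± 0.837 to 7.06 ± 1.33 CPM (log2 fold change 0.81, edgeR quasi-likelihood adjusted p = 0.0104), with no overlap between groups. *Fgf13*, with a log2 fold change of 0.06, and *Fgf12*, with -0.45, did not pass.

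None of the 3 proteases that shed Klotho passed the test, with log2 fold changes of -0.29 for *Bace1*, 0.16 for *Adam17* and -0.0007 for *Adam10*. Of the 8 tested partners that bind FGF receptors or their ligands, *Ncam1* rose. This neural cell adhesion molecule, known to bind FGFR1 and to reappear on denervated and regenerating fibers, went from 16.8 ± 1.55 to 42.85 ± 12.6 CPM (SD, n = 6 each), with no overlap between groups (log2 fold change 1.35, standard error 0.157, edgeR quasi-likelihood adjusted p = 0.00128). Without *FRAIL1* muscle 5 its log2 fold change was 1.18. *Flrt2* (0.40) and *Il17rd* (-0.10), a membrane antagonist of FGF signalling, did not pass, and *Cdh2*, N-cadherin, passed with the mouse as a block (log2 fold change 0.46, adjusted p = 0.0443) and with DESeq2 (adjusted p = 0.0277).

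Heparan sulfate proteoglycans, the surface and matrix proteins that hold FGFs, leaned upward. All 11 had a positive log2 fold change, against 51.6% of all genes tested, with a list median of 0.26 that was 0.18 without *FRAIL1* muscle 5. Of the 11, *Sdc2* passed the test, from 17.9 ± 2.85 to 27.8 ± 7.63 CPM (SD, n = 6 each, log2 fold change 0.64, or 0.48 without *FRAIL1* muscle 5, edgeR quasi-likelihood adjusted p = 0.0351 with all muscles), and *Gpc4* passed with the mouse as a block (adjusted p = 0.0418). The 3 with the highest CPM, *Gpc1* (log2 fold change 0.07), *Hspg2* (0.11), which encodes perlecan, and *Sdc3* (0.26), a syndecan of satellite cells, did not pass. Of the 15 enzymes that build or trim heparan sulfate, *Sulf1* rose. It encodes a sulfatase of the cell surface that trims the chains and dampens FGF signalling, and went from 9.93 ± 0.762 to 13.5 ± 2.74 CPM with no overlap between groups (log2 fold change 0.44, edgeR quasi-likelihood adjusted p = 0.0326). Without *FRAIL1* muscle 5 the log2 fold change of *Sulf1* was 0.32. *Extl3* (-0.24), *Ext2* (-0.10) and *Hs6st1* (0.05), the 3 with the highest mean CPM over all 12 muscles, did not pass, and with the mouse as a block *Extl3* (adjusted p = 0.0349) and *Ndst1* (adjusted p = 0.0246, log2 fold change -0.19) did.

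Inside the cell, 3 called genes rose among the 22 adaptors and effectors and the 14 members of the RAS-ERK cascade, all of them tested. Over all genes tested, 4.43% rose and 1.85% fell. *Grb10*, an adaptor that restrains insulin and growth factor receptors, went from 37.5 ± 3.38 to 71.5 ± 33.9 CPM (SD, n = 6 each, log2 fold change 0.93, edgeR quasi-likelihood adjusted p = 0.0396), and its adjusted p was 0.0712 with the mouse as a block. Muscle 5 weighed on it, and without that muscle the log2 fold change was 0.63. *Shc1*, an adaptor of receptor kinases, had a log2 fold change of 0.26 (edgeR quasi-likelihood adjusted p = 0.04997), at the edge of the threshold. *Nras*, a RAS GTPase, went from 43.8 ± 4.22 to 57.8 ± 6.90 CPM with no overlap between groups (log2 fold change 0.40, edgeR quasi-likelihood adjusted p = 0.0151). Other members with high CPM had lower means in *FRAIL1* muscles and did not pass, among them *Akt2* (log2 fold change -0.25), *Ptpn11* (-0.24), *Map2k2* (-0.13), *Ksr1* (-0.28) and *Rps6ka2* (-0.36). With the mouse as a block *Ptpn11*, the phosphatase SHP2, passed (adjusted p = 0.0191), as did *Ksr1* (0.0455) and *Rps6ka2* (0.0149). The list medians were -0.06 for 22 adaptors and effectors and -0.02 for 14 cascade members.

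Genes that ERK signalling is known to induce, including its feedback inhibitors, gave 1 call in 20 tested, against 6.28% of all genes tested. *Phlda1* went from 7.66 ± 0.712 to 9.73 ± 1.23 CPM (SD, n = 6 each, log2 fold change 0.35, edgeR quasi-likelihood adjusted p = 0.0439), and without *FRAIL1* muscle 5 its adjusted p was 0.0679. *Dusp1* (log2 fold change -0.27), *Ccnd1* (0.16) and *Spry1* (0.25) did not pass, and with the mouse as a block *Spry1* (adjusted p = 0.0246) and *Dusp6* (0.0435), feedback inhibitors of the cascade, passed. The median of the list was 0.10, and 14 of the 20 had a positive log2 fold change.

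**Figure D4:**
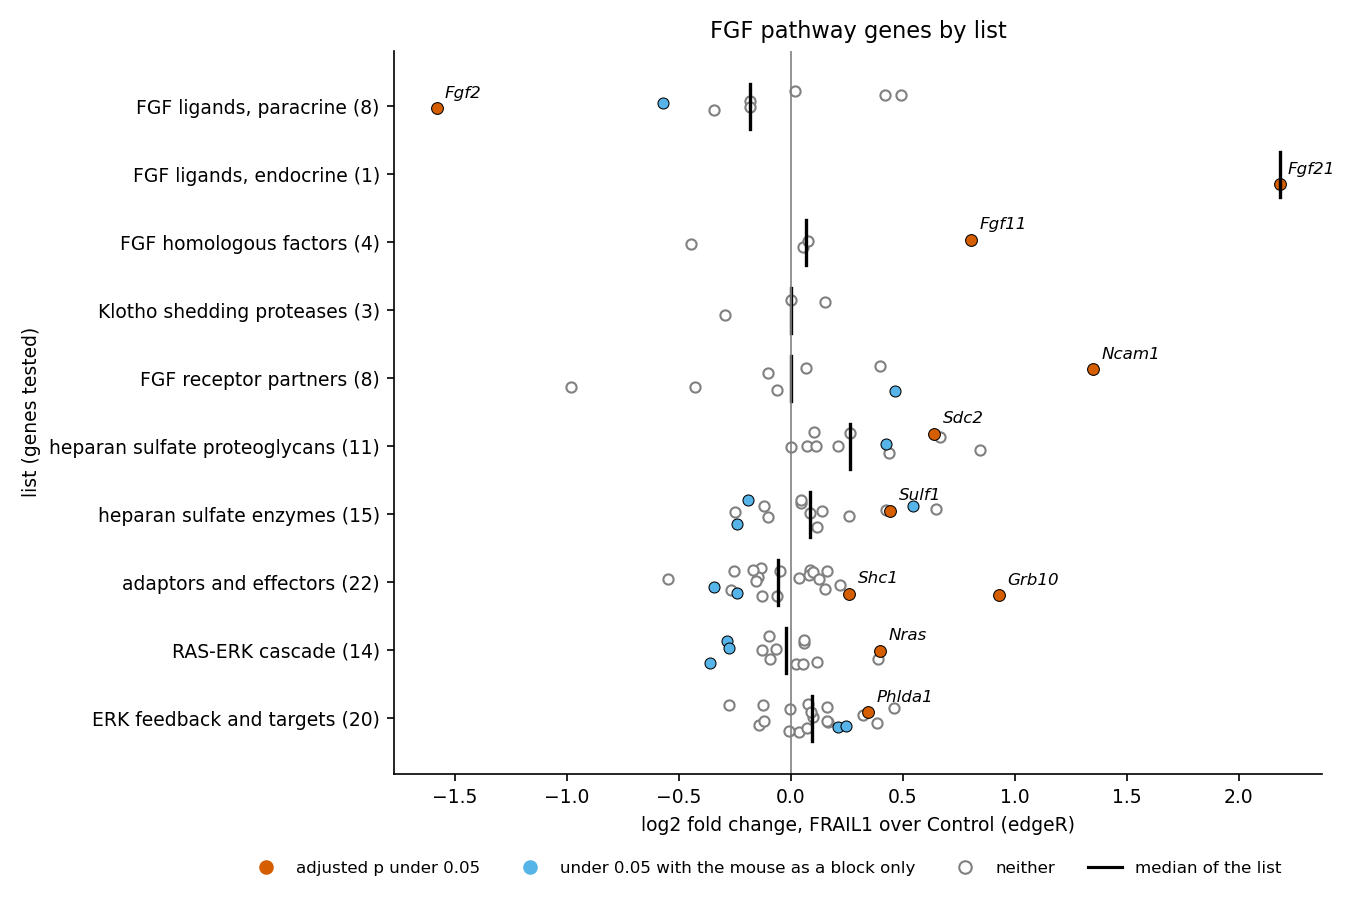
Log2 fold change of the 106 tested pathway genes (horizontal axis) by list (vertical axis, number tested in brackets), orange and named at an adjusted p under 0.05, blue where edgeR gave that only with the mouse as a block, with a black bar at each list's median. Named genes lie on the right except *Fgf2* at -1.58, and all 11 heparan sulfate proteoglycans lie at or right of 0.

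Marker lists of other cell types had higher medians beside the receptors. All 7 macrophage markers were positive, with a median log2 fold change of 0.69 (0.61 without *FRAIL1* muscle 5), and summed to between 201.7 and 310.6 CPM in Control and between 251.3 and 669 CPM in *FRAIL1* muscles. None of the 7 passed edgeR's quasi-likelihood test without the block, whereas 5 rose with the mouse as a block and 5 with DESeq2. Over all genes tested, 7.48% rose with the block, and DESeq2 called 14.1% in either direction. The 7 satellite cell markers summed to between 53.6 and 63.1 CPM in Control and between 60.7 and 78.2 CPM in *FRAIL1* muscles, with a median of 0.31 (0.22 without muscle 5). Of these, *Pax7* and *Myf5* passed with the mouse as a block and with DESeq2, and none passed in edgeR without the block. Of 7 fibro-adipogenic markers 6 had a positive log2 fold change, with sums between 235.5 and 414.3 CPM in Control and between 308.9 and 535.1 CPM in *FRAIL1* muscles. Their median of 0.30 was 0.06 without muscle 5, when 4 of the 7 were positive, and 2 passed with DESeq2. None of these 3 lists had a marker at 0 in every muscle, and the part of these cell types in the receptor results was not tested.

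Of 8 tendon and cartilage markers, with a median of 0.28, *Scx* rose (log2 fold change 0.59, edgeR quasi-likelihood adjusted p = 0.0102), with sums between 50 and 128.7 CPM in Control and between 64.8 and 173.4 CPM in *FRAIL1* muscles. The 7 smooth muscle and pericyte markers, with a median of -0.10, summed to between 279.5 and 415.8 CPM in Control and between 292.5 and 353.3 CPM in *FRAIL1* muscles, and *Rgs5* passed with the mouse as a block (adjusted p = 0.0023). Of 7 skin epithelium markers 4 had too few counts to be tested (*Krt5*, *Krt14*, *Krt1* and *Lor*), and *Trp63* rose (log2 fold change 0.82, edgeR quasi-likelihood adjusted p = 0.0344), with sums between 9.85 and 12.4 CPM in Control and between 11.3 and 23.9 CPM in *FRAIL1* muscles. Without *FRAIL1* muscle 5 the log2 fold change of *Trp63* was 0.62. Among fiber markers *Ckm*, the muscle creatine kinase, fell (log2 fold change -0.38, edgeR quasi-likelihood adjusted p = 0.0482), and without *FRAIL1* muscle 5 its log2 fold change was -0.31.

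**Figure D5:**
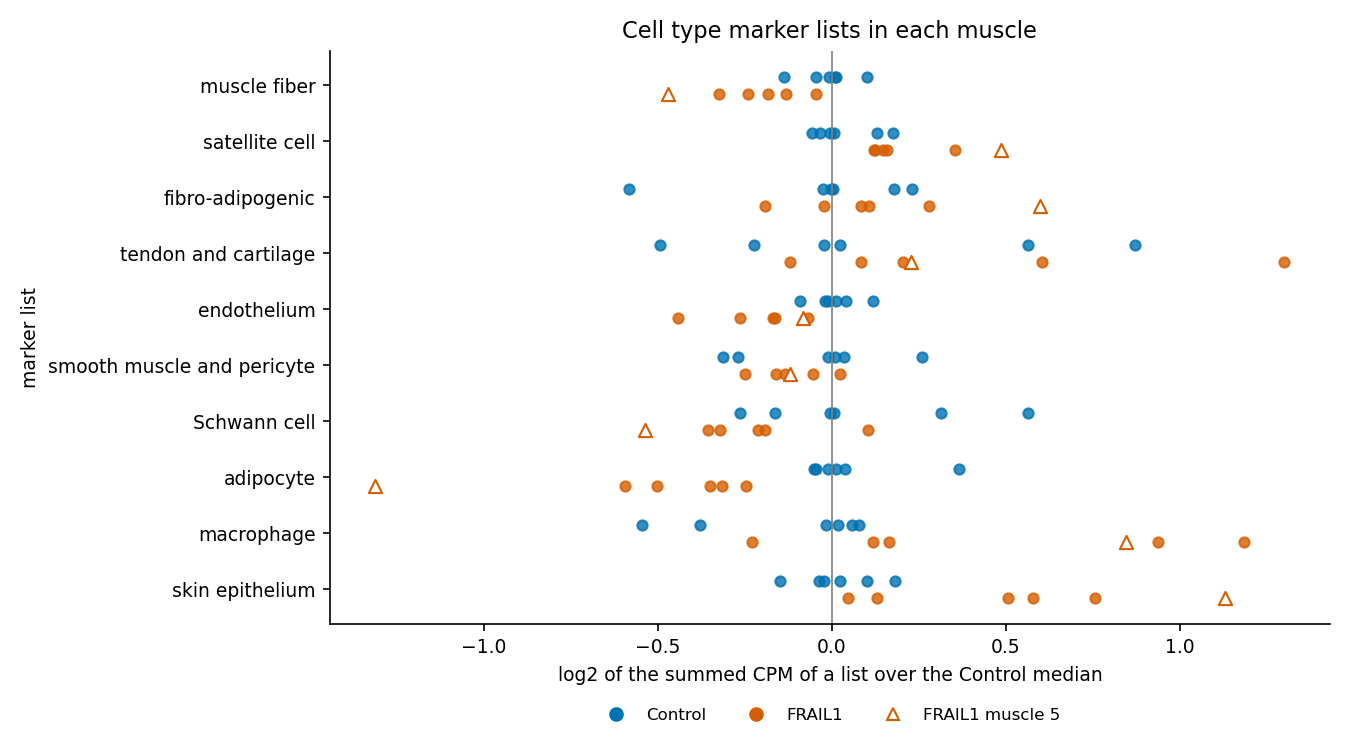
Summed CPM of 10 marker lists in each muscle, as log2 of the ratio to the median Control muscle (horizontal axis), with Control muscles in blue, *FRAIL1* muscles in orange and *FRAIL1* muscle 5 as an open triangle. The adipocyte list, most of whose sum is *Plin4*, does not overlap between groups. Muscle 5 lies at an end of the muscle fiber, satellite cell, fibro-adipogenic, Schwann cell, adipocyte and skin epithelium lists.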

How the data were processed

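Poly(A) RNA-seq of 12 TA muscles was analysed. According to the study's methods and the submitters' processing notes, the authors trimmed reads with Trimmomatic, mapped them to mm10 with STAR 2.7.8a and deposited whole-number counts per gene from featureCounts 2.0.1, without normalization. Gene IDs were matched to RefSeq symbols (25275 of 27179, the rest holding 0.28% of the counts). Genes were filtered with filterByExpr, scaled with TMM and compared by edgeR 4.0.16's robust quasi-likelihood test (R 4.3.3) over all 15502 genes, with an adjusted p under 0.05 as the threshold. The test was checked on simulated counts with known changes. Exon lengths came from GENCODE for GRCm38, and shares were compared by exact permutation tests.

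The members and lists were chosen with earlier results of these data known. Named genes were all 7 members, each list's called genes and its 3 with the highest CPM, and 3 most alike genes per tested member. A gene that this rule names among the adaptors and effectors is not reported here. *Cdh2*, *Fgfbp1*, *Gpc4*, *Dusp6*, *Ndst1*, *Prx*, *Rgs5*, *Pax7*, *Myf5* and the untested skin markers were named after their values were seen. Alternatives were DESeq2 1.42.0, limma 3.58.1 voom, other scalings and filters, the longest transcript as length, the mouse as a block and muscles left out. The design puts both plasmids in each mouse, but no source states that a number marks a mouse. The deviations of the muscles of 1 number correlated at 0.254, 0.162, 0.282, 0.263, 0.0547 and 0.185 over 15502 genes, and 10 of 12 muscles correlated best with their own number. The mean for other numbers was -0.0400. It is not separate evidence, since deviations from group means make it negative when muscles of 1 number correlate positively. The totals of 44848322 to 60527385 counts limit mainly *Kl* and *Klb*, and the error given is the spread between muscles.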

Additional observations from a re-analysis of the deposited data

Results flagged for a closer look

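In 5 of 22 groups of 6 muscles the highest or lowest value stood far from the others by Dixon's criterion, which chance alone meets in about 1 of 20 groups. *FRAIL1* muscle 5 was far above the other *FRAIL1* muscles for *Fgfr4*, at 22.32 CPM with the nearest at 11.26 CPM, and for *Fgfrl1*, at 72.99 CPM with the nearest at 38.95 CPM. It was also the highest for the share of *Fgfr4* among the kinase receptors, at 43.02% with the nearest at 29.34%, and the lowest for the share of *Fgfr1*, at 51.67% with the nearest at 64.57%. The share of *Fgfr3* in *FRAIL1* muscle 2, at 6.697%, was far above the nearest at 4.957%. These values belong mostly to 1 muscle and are not separate events. What sets muscle 5 apart was not tested.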

How the results depend on the processing

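No direction reversed in any alternative for the 6 tested genes or the 4 shares. With the replicate block (the mouse as a term) 2186 of all genes were called, 2 paracrine ligands, 2 receptor partners, 2 proteoglycans, 4 heparan sulfate enzymes, 4 cascade members and 3 ERK targets, and *Fgfr1* passed at a log2 fold change of 0.22. The block changed no other call among the 6 tested genes. The paired test left the shares of *Fgfr1* (-8.38 points), *Fgfr2* (-0.558) and *Fgfr4* (9.46) short of the threshold. For *Fgfr1* and *Fgfr4* the raw p of 0.0313 was the smallest this exact sign-flip test can give. After adjustment over the 4 receptors it can hardly pass, so this test cannot decide the question. DESeq2 called 2154 genes, 4 of the 7, 3 partners, 3 proteoglycans, 3 enzymes, 5 adaptors and 4 cascade members, with *Fgfr1* at 0.21 and *Fgfrl1* at 0.75. DESeq2 with the block called 2829 genes, 4 of the 7, 2 paracrine ligands, 1 shedding protease, 3 partners, 3 proteoglycans, 5 enzymes, 5 adaptors, 5 cascade members and 4 ERK targets, with *Fgfr1* at 0.21 and *Fgfrl1* at 0.66. Voom called 1836 genes, 4 of the 7, 3 partners, 3 proteoglycans, 3 enzymes, 5 adaptors and 4 cascade members, with *Fgfr1* at 0.21 and *Fgfrl1* at 0.57. Each other scaling called 2 cascade members. With no filter 1 of the 7 was called, *Fgfr4* being short of the threshold at 1.04, and no paracrine ligand, proteoglycan, adaptor or ERK target (0 each). Requiring at least 10 counts in every muscle left *Kl* untested and called 1 of the 7, 0 paracrine and 0 endocrine ligands and 2 cascade members. A fit that was not robust called 1 adaptor, and *Fgfrl1* passed at 0.76.

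Without both muscles numbered 5, 0 paracrine ligands, 2 cascade members and 0 ERK targets were called and *Fgfrl1* passed at 0.48. With the block as well, 2305 genes were called, 4 of the 7, 3 paracrine ligands, 2 partners, 2 proteoglycans, 4 enzymes, 5 adaptors, 4 cascade members and 2 ERK targets, with *Fgfr1* at 0.18 and *Fgfrl1* at 0.46. The longest transcript as length left the share of *Fgfr2* (-0.673 points) short of the threshold and moved Control levels to 9.85 (*Fgfrl1*), 11.1 (*Fgfr1*), 0.725 (*Fgfr3*), 0.296 (*Fgfr2*) and 0.0950 (*Kl*) CPM per kb. Leaving out 1 muscle at a time gave 364 to 2110 called genes, 0 to 4 of the 7, 0 to 1 paracrine and 0 to 1 endocrine ligands, 1 to 3 partners, 0 to 4 proteoglycans, 0 to 4 enzymes, 0 to 6 adaptors, 1 to 5 cascade members and 0 to 3 ERK targets. Log2 fold changes then ranged from -1.89 to -1.35 for *Kl*, 0.18 to 0.25 for *Fgfr1*, 0.72 to 1.13 for *Fgfr4* and 0.48 to 0.86 for *Fgfrl1*, and the *Fgfr2* share from -0.663 to -0.395 points. Why the counts of calls moved was not tested. Depth limits *Kl* and *Klb*, and the interval of *Klb* covers counting error only.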
